A study of Homo sapiens with 4 samples.

Results

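Cytosolic ribosomal proteins are the protein subunits of the ribosome that translates nuclear-encoded mRNA, and 83 of the 24424 gene rows in the deposited tables carried a symbol of this family. They were chosen by symbol alone: RPL or RPS, an optional P, a number and at most a short suffix. Of the 83, 79 had counts above 0 in every library and are described as the family. They comprised 30 proteins of the small (40S) subunit, 46 of the large (60S) subunit and the 3 proteins of the 60S stalk. The other 4, among them RPL3L, RPL10L and RPL21, had a count of 0 in at least 1 library and were set apart.

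The study sequenced RNA from BEAS-2B, a virus-transformed human bronchial epithelial cell line, in 4 libraries with 1 library in each group. All groups had a wild-type genotype per the labels. The control library came from cells with no treatment and the LPS library from cells given LPS, a bacterial cell wall lipid, for 2 h. For the siOCLN+LPS library, cells were transfected for 24 h with siRNA against occludin and then given LPS for 2 h. For the library labelled wtOCLN+LPS, wild-type occludin was transfected for 24 h before the same LPS exposure. The labels mention no transfection or mock transfection for the control and LPS libraries, so transfection and the change in occludin cannot be told apart in any comparison with them. Because each group had 1 library, there were no replicates and no test was made. Each value below compares libraries, and intervals are exact 95% intervals that cover counting error only.

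A ribosome generally holds a single copy of most of these proteins, with several copies of P1 and P2 in the stalk, and cells keep the supply of the different subunits in balance. Ribosomal protein mRNAs are among the most abundant in dividing cells. Most begin with a terminal oligopyrimidine (TOP) tract, a C followed by further pyrimidines at the first transcribed base, through which the mTORC1 kinase pathway and the protein LARP1 control their translation and stability. Several members have paralogues expressed at lower levels, and many have processed copies in the genome that can take up sequencing reads.

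OCLN, which encodes the tight junction protein occludin, checked the labels. Its level was 55.4 CPM (the count divided by the library total and multiplied by 1000000) in control, 50.4 CPM in LPS, 21.0 CPM in siOCLN+LPS and 29.7 CPM in the one labelled wtOCLN+LPS. The siOCLN+LPS library thus held 0.417 times the LPS level (0.366 to 0.473). The library labelled wtOCLN+LPS held 0.588 times the LPS level (0.524 to 0.660), which went against its label, so no direction of occludin is drawn from that label. Library totals ran from 13867494 to 17500031 counts, and members of the family had between 74 and 28071 counts in a library. Epithelial markers were present: 9 or 10 of the 10 listed airway epithelial genes reached 1 CPM, with a summed level of 2307 CPM in the control, 2030 CPM in LPS, 3566 CPM in siOCLN+LPS and 3774 CPM in the one labelled wtOCLN+LPS. Of the other cell types, the leukocyte genes CD3E and MPO were among those at 0 in all 4 libraries. The summed level of the leukocyte list was 4.98 to 17.0 CPM, nearly all from CD68. CD68 was at 16.6 CPM in control and in LPS, 4.98 CPM in siOCLN+LPS and 7.49 CPM in the one labelled wtOCLN+LPS. The fibroblast list summed to 70.4 to 111 CPM, nearly all from COL1A1 and PDGFRB, and the endothelial list to 0.378 to 1.59 CPM. The epithelial sum was higher in both transfected libraries, and its part in the results below was not tested.

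The start sites of a few members show the tract that marks most of the family. The windows hold the 15 bases before the annotated start and the first 15 bases of the transcript, from RefSeq on GRCh38.p14, with the pyrimidine run at the start in capitals. RPLP0, RPL13A and RPS12 are shown because they had low ratios, RPL39 and RPL35 because they had high ratios, and the last 4 as pairs of a namesake and its paralogue.
RPLP0, chr12:120201097-120201126, minus strand: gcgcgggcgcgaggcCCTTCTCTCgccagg
RPL13A, chr19:49487593-49487622, plus strand: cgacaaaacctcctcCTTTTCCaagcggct
RPS12, chr6:132814554-132814583, plus strand: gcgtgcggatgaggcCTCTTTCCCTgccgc
RPL39, chrX:119791616-119791645, minus strand: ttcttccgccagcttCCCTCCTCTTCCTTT
RPL35, chr9:124861943-124861972, minus strand: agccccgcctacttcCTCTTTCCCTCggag
RPL22, chr1:6199581-6199610, minus strand: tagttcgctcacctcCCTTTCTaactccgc
RPL22L1, chr3:170870181-170870210, minus strand: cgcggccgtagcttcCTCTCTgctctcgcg
RPS27, chr1:153990747-153990776, plus strand: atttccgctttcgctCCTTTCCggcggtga
RPS27L, chr15:63157463-63157492, minus strand: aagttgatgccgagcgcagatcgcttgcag

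A C at the start followed by at least 4 C or T, read on the strand of the gene, was found in 46 of the 66 members with a RefSeq promoter entry (69.7%). Among all 27305 symbols with an entry, 1404 had such a start (5.14%). In the windows shown, the members picked for low and for high ratios had the run, and so did RPL22 and its paralogue RPL22L1. RPS27 had it, and at the annotated start of RPS27L these letters were not found. Among members not shown, RPL7L1, with low ratios, and RPS29 and RPL26L1, with high ratios, had entries without such a start.

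The family took up between 3.68% and 4.03% of the counts of a library. Its 79 members held 4.03% of all counts in the control (exact binomial interval 4.02 to 4.04), 3.92% with LPS (3.91 to 3.93), 3.995% in siOCLN+LPS (3.986 to 4.004) and 3.68% in the one labelled wtOCLN+LPS (3.67 to 3.69). In these bulk samples a change in the number of cells and a change in RNA per cell cannot be told apart, and a share of a library gives no amount per cell. The 40S members held 1.42%, 1.40%, 1.43% and 1.30% in the same order, and the 60S members outside the stalk 2.36%, 2.29%, 2.37% and 2.19%. The 3 stalk genes held 0.249%, 0.240%, 0.203% and 0.184%, lower in both transfected libraries than in the other pair.

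Levels within the family lay close together once divided by coding length. In control, the 74 members outside the paralogue type had a median of 994 CPM per kb of coding sequence (interquartile range 765 to 1283), and the medians in LPS, siOCLN+LPS and the library labelled wtOCLN+LPS were 976, 1014 and 920 CPM per kb. RPL41, whose coding sequence of 75 nt is the shortest of the family, stood far above the rest at 8698 CPM per kb in control, on a scale that leaves out its untranslated regions. RPL10, which completes the 60S subunit late in its assembly, came next at 2263 CPM per kb. The 5 paralogue-type members lay at 17.2 to 124 CPM per kb in control, below the 459 CPM per kb of RPL34, the lowest of the other members.

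The 2 h LPS exposure left the family close to the control. The median log2 ratio of LPS against control (of CPM + 1, used for all log2 ratios here) was −0.05 over the 79 members and −0.09 over all 13551 genes tested, which had to reach 1 CPM in LPS or control. The ratios had an SD of 0.07 across members, against 0.38 across all genes tested, and ran from −0.24 (RPL39L) to 0.14 (RPL27). None of the 79 lay at least 1.2-fold higher, while 8.31% of all genes tested did, and none lay at least 1.2-fold lower, while 18.3% did. Among genes at 100 CPM or more, 9.70% were higher and 5.55% lower. Of the members, 22 lay above 1 and 57 below (29.3% of all genes tested lay above 1), a direction that turned to 70 above and 9 below when libraries were scaled by TMM, upper quartile or median ratio. With TMM, 49.5% of all genes tested lay above 1. The next lowest after RPL39L were RPL22L1 (−0.20), RPS27L (−0.18), RPL29 (−0.15) and RPL36 (−0.15), and the next highest after RPL27 were RPS29 (0.14), RPL7L1 (0.12), RPS21 (0.10) and RPS25 (0.08). RPS6, the ribosomal substrate of S6 kinase, was at 975 CPM without and 964 CPM with LPS, and RPS19, a gene mutated in Diamond-Blackfan anaemia, was at 419 and 420 CPM.

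**Figure D1:**
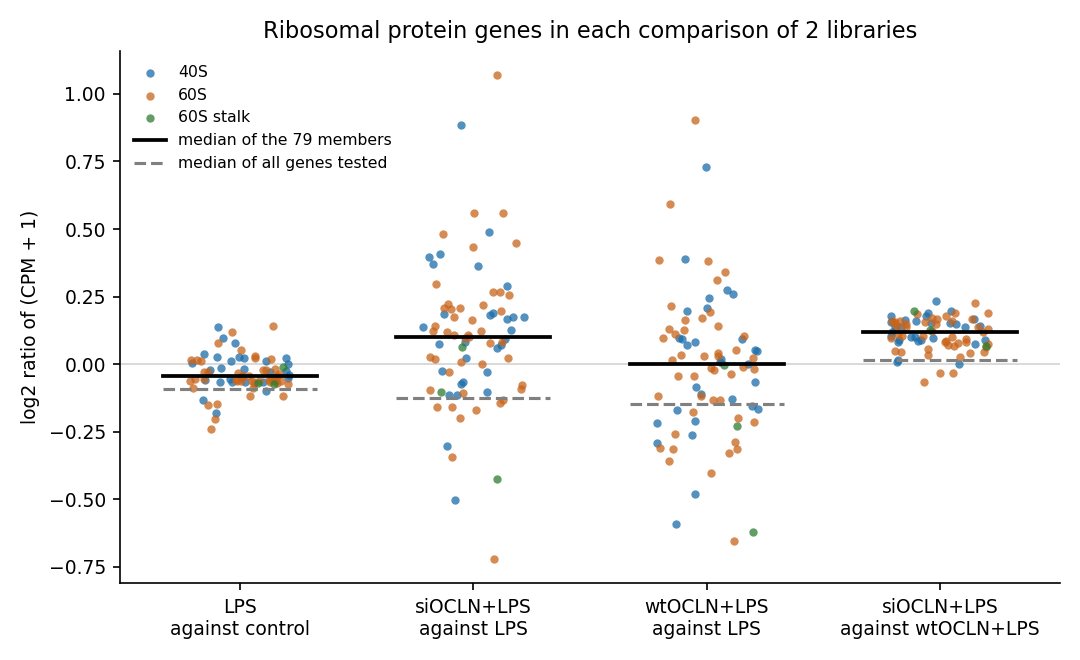
Log2 ratio of (CPM + 1) for the 79 ribosomal protein genes in each of 4 comparisons of 2 libraries; each point is 1 gene, coloured by subunit, the solid bar is the median of the members and the dashed bar the median of all genes tested. Points are spread most widely in the comparisons of a transfected library with LPS (SD 0.27 in both), and narrowly for LPS against control (SD 0.07) and between the transfected libraries (SD 0.06).

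Against LPS alone, members of the family differed in both directions in both transfected libraries, with an SD of log2 ratios of 0.27 in each, against 0.56 and 0.57 across all genes tested. In siOCLN+LPS against LPS the median log2 ratio of the 79 members was 0.10, which was 0.23 above the median of all 13505 genes tested (−0.13). In all, 55 members lay above 1 and 24 below, while 39.2% of all genes tested lay above 1. At least 1.2-fold higher were 16 members (20.3%), close to the 21.2% of all genes tested, and at least 1.2-fold lower were 5 (6.33%), against 38.1% of all genes tested. Among genes that reached 100 CPM, the range of most members, 24.1% were higher and 31.8% lower by that rule. Past 1.5-fold, 2 members were higher and 1 was lower, against 9.09% and 15.3% of all genes tested. TMM scaling, which moved the median of all genes from −0.13 to 0.01, gave 37 members higher and 3 lower, so that the higher members made up 92.5% of those past 1.2-fold in place of 76.2%. Of all genes tested, TMM put 29.7% higher and 27.2% lower, and the higher ones made up 52.1% of those past 1.2-fold in place of 35.7%. The members at least 1.2-fold higher were RPL22L1, RPS27L, RPL39, RPL39L, RPS29, RPL26L1, RPL35, RPL36, RPS21, RPS15A, RPS27, RPS7, RPL38, RPS15, RPL35A and RPL32, and those lower were RPL13A, RPS2, RPLP0, RPL7L1 and RPS12. Summed with its processed copies, RPL13A lay inside 1.2-fold in this comparison.

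In the library labelled wtOCLN+LPS against LPS the median was 0.00, which was 0.15 above the median of all 13493 genes tested (−0.15), and 40 members lay above 1 and 39 below. Of all genes tested, 36.8% lay above 1. At least 1.2-fold higher were 9 members (11.4%), against 19.4% of all genes tested, and at least 1.2-fold lower were 13 (16.5%), against 38.8%. Among genes at 100 CPM or more the percentages were 23.5% and 31.3%. Past 1.5-fold, 3 members were higher and 3 lower, against 8.59% and 15.1% of all genes tested. TMM scaling, which moved the median of all genes to 0.01, turned the balance to 23 members higher and 4 lower, so that the higher members made up 85.2% of those past 1.2-fold in place of 40.9%. Of all genes tested, TMM put 28.8% higher and 25.7% lower, and the higher ones made up 52.8% of those past 1.2-fold in place of 33.3%. The higher members were RPL22L1, RPS27L, RPL39L, RPS29, RPL35, RPL39, RPL36, RPL26L1 and RPS15. The lower ones were RPL13A, RPLP0, RPS2, RPS12, RPL7L1, RPL5, RPL4, RPL7, RPL23, RPL6, RPS27A, RPL31 and RPS23. This comparison shares the LPS library with the preceding one, so the values of each are given side by side and no agreement is drawn from them.

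Of the stalk proteins, which recruit the GTPase translation factors to the ribosome, RPLP0 stood apart. RPLP0, the anchor of the stalk, was at 1402 CPM in the control, 1337 CPM in LPS, 995 CPM in siOCLN+LPS and 869 CPM in the one labelled wtOCLN+LPS. Both transfected libraries lay below both others, at 0.744 times the LPS level (0.729 to 0.760) in siOCLN+LPS and 0.650 times (0.636 to 0.664) in the library labelled wtOCLN+LPS. RPLP1 was at 647, 642, 598 and 548 CPM in the same order and RPLP2 at 444, 422, 441 and 421 CPM. RPLP1 was lower than in LPS in both transfected libraries by library total, but with TMM it lay above LPS in siOCLN+LPS (0.05 on the log2 scale). RPLP2, the partner of RPLP1 in the stalk dimers, was at 1.05 times the LPS level (1.01 to 1.08) and 0.998 times (0.964 to 1.03).

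Among 40S proteins, RPS2, which lines the mRNA entry side of the small subunit, had the lowest ratio in both libraries. It was at 1767 CPM in the control, 1650 CPM in LPS, 1165 CPM in siOCLN+LPS and 1095 CPM in the one labelled wtOCLN+LPS, or 0.706 times (0.693 to 0.720) and 0.664 times (0.651 to 0.677) the LPS level. RPS12, a protein of the beak of the 40S head, was at 360, 369, 299 and 264 CPM in the same order of libraries. Its ratios to LPS were 0.809 (0.779 to 0.841) and 0.716 (0.688 to 0.745), and with TMM 0.897, inside 1.2-fold, and 0.804. Both genes were thus lower in the transfected pair than in the other pair. RPS6 was at 891 and 828 CPM in the transfected libraries (ratios 0.924 and 0.859) and RPS19 at 400 and 377 CPM (0.951 and 0.897). These lay inside 1.2-fold, and with TMM the ratio of RPS6 in siOCLN+LPS (log2 0.03) and both ratios of RPS19 (0.08 and 0.01) lay above 1.

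At the other end of the 40S subunit stood small proteins. RPS29, a zinc-binding protein of the 40S head, was at 86.1 CPM in the control, 94.8 CPM in LPS, 133 CPM in siOCLN+LPS and 124 CPM in the one labelled wtOCLN+LPS, which made 1.41 times (1.32 to 1.51) and 1.31 times (1.23 to 1.41) the LPS level. RPS21 was at 178, 190, 253 and 228 CPM, with ratios of 1.33 (1.27 to 1.40) and 1.199 (1.14 to 1.26). In both genes the transfected libraries lay above the other pair. RPS27, the namesake of RPS27L, was at 379, 365, 472 and 422 CPM.

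In the 60S subunit, RPL5 and RPL11 form with 5S rRNA a particle that can also bind the p53 regulator MDM2. RPL5 was at 655 CPM in the control, 622 CPM in LPS, 553 CPM in siOCLN+LPS and 485 CPM in the one labelled wtOCLN+LPS, with ratios to LPS of 0.889 (0.864 to 0.915) and 0.780 (0.757 to 0.804). RPL11 was at 694, 654, 612 and 569 CPM, with ratios of 0.937 (0.911 to 0.963) and 0.871 (0.846 to 0.896). Both were lowest in the library labelled wtOCLN+LPS, although in siOCLN+LPS the TMM ratio of RPL5 was close to 1 (log2 −0.02) and that of RPL11 above 1 (0.05). In the library labelled wtOCLN+LPS the TMM ratio of RPL5 was 0.876, inside 1.2-fold. RPL4, with 1281 nt the longest coding sequence of the family, was at 1611, 1537, 1379 and 1225 CPM, and its TMM ratios to LPS were 0.993 and 0.895.

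High ratios among 60S proteins were found for RPL39 and RPL35, both of which line or lie beside the exit tunnel for the growing peptide. RPL39 was at 193 CPM in the control, 204 CPM in LPS, 301 CPM in siOCLN+LPS and 266 CPM in the one labelled wtOCLN+LPS, or 1.48 times (1.41 to 1.55) and 1.31 times (1.25 to 1.37) the LPS level. With the trend on coding length removed, its log2 ratio in the library labelled wtOCLN+LPS turned to −0.00965. RPL35 was at 249, 243, 332 and 317 CPM, with ratios of 1.37 (1.31 to 1.43) and 1.31 (1.25 to 1.36). RPL41 was at 652, 661, 758 and 721 CPM, with ratios of 1.15 (1.12 to 1.18) and 1.09 (1.06 to 1.12), inside 1.2-fold, and with TMM 1.27 and 1.22, past it. In all 3 genes both transfected libraries lay above both others.

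**Figure D2:**
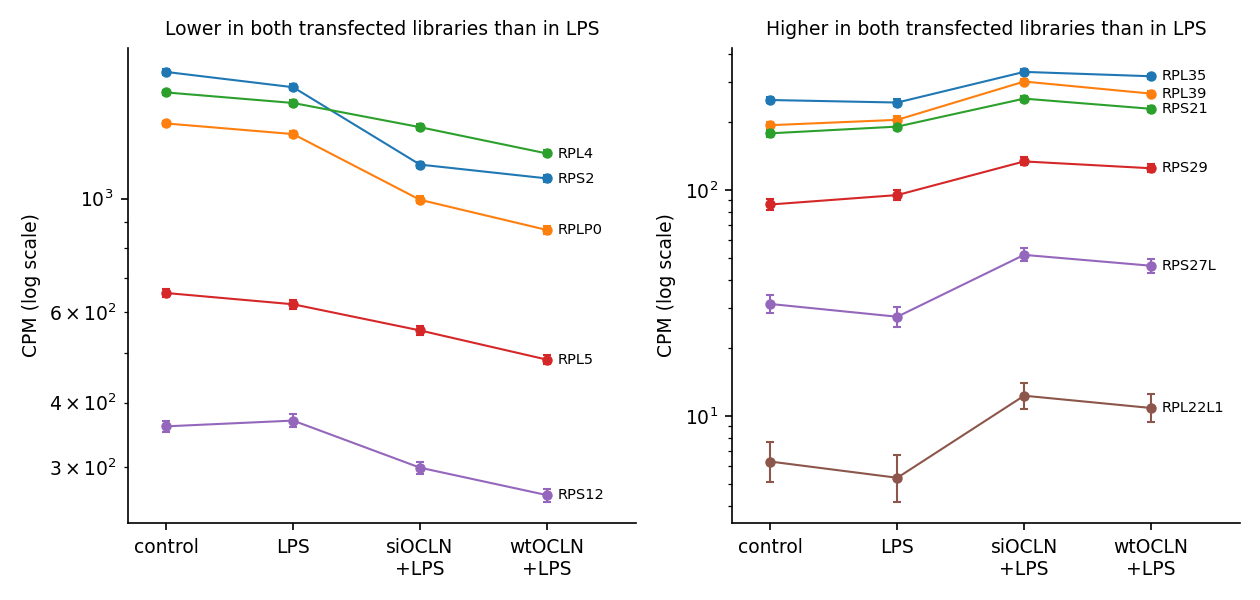
Levels of selected ribosomal protein genes in the 4 libraries, in CPM on a log scale, with exact 95% Poisson intervals; lines join the values of 1 gene, and the groups have no order. RPS2, RPLP0, RPL4, RPL5 and RPS12 (left) lay lower in both transfected libraries than in LPS, and RPL35, RPL39, RPS21, RPS29, RPS27L and RPL22L1 (right) lay higher.

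The ratios followed the coding length of the members, which the choice by symbol did not use. Across the 79 genes, log2 ratio and log2 coding length had a Pearson correlation of −0.54 (Spearman −0.55) in siOCLN+LPS against LPS and of −0.57 (−0.56) for the library labelled wtOCLN+LPS against LPS. For LPS against control it was −0.10 (−0.12), and between the transfected libraries 0.18 (0.10). The points share their libraries and depth, and genes are not independent replicates. Across all genes with a coding length the correlation was −0.12 in siOCLN+LPS against LPS and −0.10 in the other comparison, and among genes at 100 CPM or more −0.21 and −0.17. Members with a higher mean level in CPM also had lower ratios (Pearson −0.59 and −0.62).

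The 26 shortest members, with 75 to 390 nt of coding sequence, had a median log2 ratio of 0.21 in siOCLN+LPS against LPS, and 12 of them were at least 1.2-fold higher and none was lower. The 26 of middle length (396 to 552 nt) had a median of 0.12, and the 27 longest (564 to 1281 nt) a median of −0.03, with 1 higher and 4 lower. In the library labelled wtOCLN+LPS against LPS the medians were 0.10, 0.03 and −0.16 in the same order. There, 7 of the shortest were higher and 1 was lower, while of the longest none was higher and 8 were lower. The order short above middle above long was thus found in both comparisons, which share the LPS library. When the trend with coding length over all genes was subtracted, the family median lay below 0, at −0.08 in siOCLN+LPS and −0.17 in the one labelled wtOCLN+LPS, with 3 members higher and 14 lower in the former and 2 higher and 25 lower in the latter. Of all genes with a coding length, the same subtraction put 20.8% higher and 36.5% lower in the former and 19.0% higher and 37.5% lower in the latter.

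**Figure D3:**
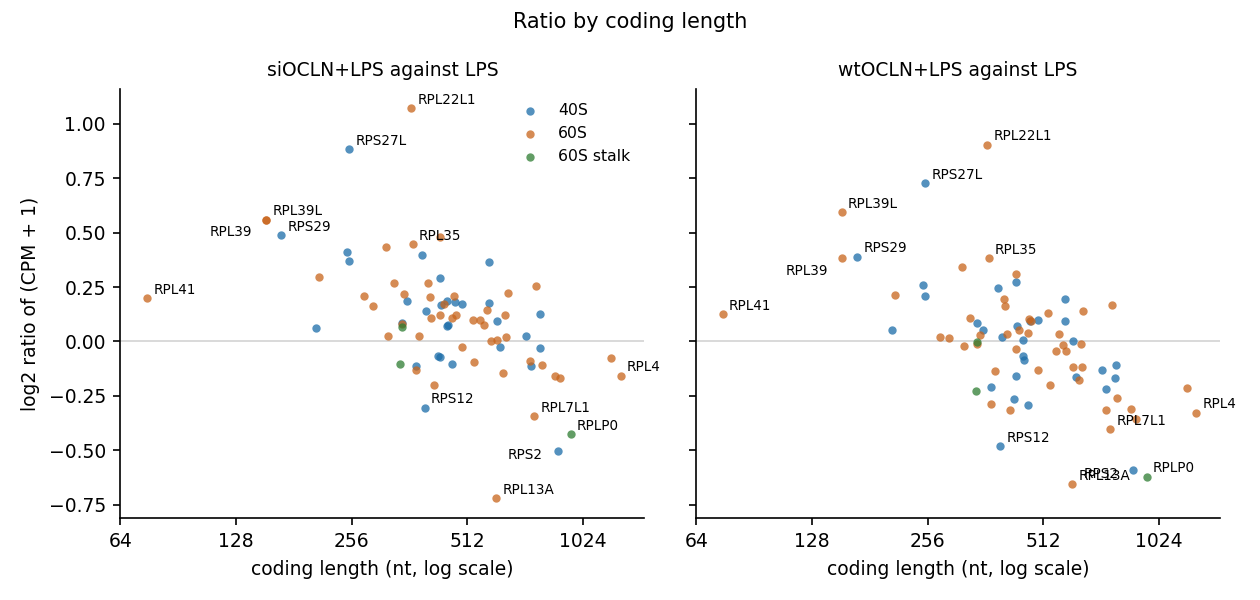
Log2 ratio of (CPM + 1) against coding length in nt (log scale) for the 79 members in siOCLN+LPS against LPS (left) and in the library labelled wtOCLN+LPS against LPS (right), coloured by subunit. Short members such as RPL39 and RPS29 lie above 0 and long ones such as RPLP0 and RPS2 below it, while RPS12 and RPL13A lie below, and RPL22L1 and RPS27L above, other members of like length.

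Other features of the genes went with smaller differences. Members with a TOP-type start (45 of the 79) had a median of 0.11 in siOCLN+LPS against LPS, and the 19 whose entries lacked it had 0.10. In the library labelled wtOCLN+LPS the medians were −0.01 and 0.05. The 26 members that host small nucleolar RNA genes in their introns had medians of 0.07 and −0.09 in these comparisons, against 0.14 and 0.03 for the 53 that host none. Hosts were found at both ends: RPS2, RPL13A and RPS12 had low ratios, and RPL39 and RPL32 were higher in siOCLN+LPS. None of these differences was tested.

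Each transfected library was also set against control. In siOCLN+LPS against control, 14 members were at least 1.2-fold higher, against 18.5% of all genes tested, and 4 lower, against 46.2%. In the library labelled wtOCLN+LPS against control, 8 were higher, against 16.9% of all genes tested, and 16 lower, against 47.5%. These allow pairs of comparisons with no library in common. Across the 79 members, the ratios of siOCLN+LPS against LPS and those of the library labelled wtOCLN+LPS against control had a Pearson correlation of 0.95 (Spearman 0.95), and 0.93 (0.94) once a line on coding length had been removed from each. The ratios of the library labelled wtOCLN+LPS against LPS and those of siOCLN+LPS against control had 0.94 (0.94), and 0.91 (0.88) without the line. The ratios of LPS against control and of siOCLN+LPS against the library labelled wtOCLN+LPS had 0.12 (0.10). Members that stood high in 1 transfected library thus stood high in the other, and the correlations are given as descriptions over genes.

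Between the transfected libraries nearly the whole family differed in 1 direction by a small amount. In siOCLN+LPS against the library labelled wtOCLN+LPS, 76 of 79 members lay above 1, where 54.5% of all 13109 genes tested did and 53.8% of those at 100 CPM or more. The median log2 ratio was 0.12 against 0.02 over all genes tested, and the SD across members was 0.06 against 0.21. With TMM, 73 lay above 1, against 48.9% of all genes tested, and the median was 0.10. No member was 1.2-fold higher (7.65% of all genes tested were) and none 1.2-fold lower (6.92% were). Among genes at 100 CPM or more, the range of most members, only 0.522% were higher and 3.21% lower. By library total, all 30 proteins of the 40S subunit and all 3 of the stalk lay above 1, as did 43 of the 46 others of the 60S subunit, and with TMM 27, 3 and 43 did. The direction was not particular to the family. By library total, 22 of 27 other RNAs with a TOP tract lay above 1 (median 0.11), and 70 of 82 respiratory chain subunits (0.11). So did 55 of 77 mitochondrial ribosomal proteins (0.07), but 30 of 60 ribosome biogenesis genes and 12 of 30 genes of RNA polymerases I and III.

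The highest members were RPS3A at 1.18 times (1.15 to 1.21), RPL7 at 1.17 times (1.14 to 1.2), RPS23 at 1.15 times (1.11 to 1.18), RPLP0 at 1.15 times (1.12 to 1.17) and RPL34 at 1.14 times (1.08 to 1.2). RPS3A was at 620 CPM in the control, 603 CPM in LPS, 658 CPM in siOCLN+LPS and 559 CPM in the one labelled wtOCLN+LPS. Among the members below 1 were RPL13A at 0.955 times (0.906 to 1.01) and RPL39L at 0.975 times (0.806 to 1.18), both with intervals that include 1. Summed with its processed copies, RPL13A lay above 1 here, at 1.06 times (1.04 to 1.08). In this comparison the ratios followed GC content (Pearson −0.53, Spearman −0.57 across the 79 genes). The part of GC content in these ratios was not tested.

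The highest ratios of the family to LPS belonged to paralogue-type members. RPL22L1, the paralogue of RPL22, whose protein is known to repress it, was at 6.29 CPM in the control, 5.34 CPM in LPS, 12.3 CPM in siOCLN+LPS and 10.9 CPM in the one labelled wtOCLN+LPS. Its ratio to LPS was 2.31 (1.76 to 3.04) in siOCLN+LPS and 2.03 (1.55 to 2.70) in the library labelled wtOCLN+LPS, from 74 counts in LPS. RPL22 itself was at 345, 318, 324 and 290 CPM. As a share of the counts of the pair, RPL22L1 made up 1.79% in control, 1.65% with LPS, 3.66% in siOCLN+LPS and 3.61% in the one labelled wtOCLN+LPS.

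RPS27L, a paralogue of RPS27 and a known p53 target, was at 31.3, 27.5, 51.6 and 46.2 CPM in the same order. Its ratios to LPS were 1.88 (1.66 to 2.12) and 1.68 (1.49 to 1.90), and its share of the pair was 7.62%, 6.997%, 9.84% and 9.86%. RPL26L1 was at 41.2, 39.6, 55.6 and 49.4 CPM, with a share of its pair with RPL26 of 7.11%, 6.95%, 8.79% and 8.72%. In these 3 pairs the shares in the transfected libraries had exact binomial intervals above those of the other libraries.

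The remaining pairs differed from this. RPL39L, a paralogue of RPL39 known for its expression in testis, was at 9.88, 8.22, 12.6 and 12.9 CPM, with ratios to LPS of 1.53 (1.22 to 1.94) and 1.57 (1.25 to 1.99). Its share of the pair was 4.87%, 3.88%, 4.02% and 4.63%, with intervals that overlap, since RPL39 was higher as well. RPL7L1, which is related to a yeast factor of 60S assembly, was at 74.3, 80.9, 63.5 and 61.0 CPM, lower in the transfected libraries, with ratios of 0.785 (0.722 to 0.854) and 0.754 (0.693 to 0.821), and with TMM 0.871 and 0.849, inside 1.2-fold. Its namesake RPL7 was at 757, 740, 695 and 594 CPM. RPL3L and RPL10L, known from striated muscle and testis, were at 0 counts in all 4 libraries, which by a floor of 3 counts allows a level of up to 0.171 to 0.216 CPM, while in the control library RPL3 was at 1149 CPM and RPL10 at 1453 CPM. Near-identical copies of these genes could share reads, so the split within a pair is uncertain.

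**Figure D4:**
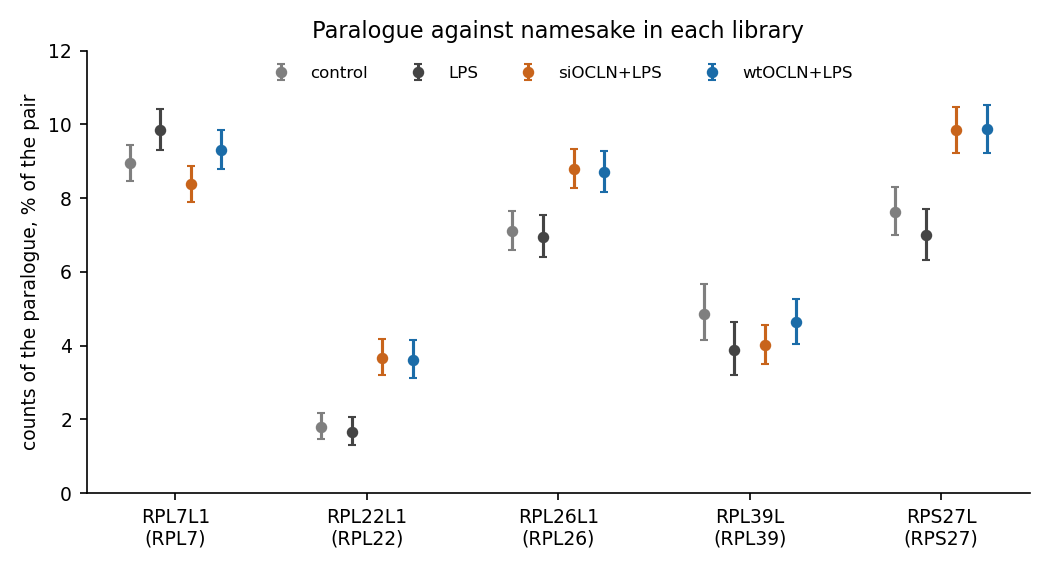
Counts of each paralogue-type gene as a percentage of the counts of the gene and its namesake (in brackets) in each library, with exact 95% binomial intervals. RPL22L1, RPL26L1 and RPS27L took a higher share in both transfected libraries, RPL39L and RPL7L1 did not.

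Processed copies held many of the reads of some members. RPL13A, a 60S protein also known as part of a complex that silences inflammatory mRNAs in monocytes, had 4532 counts in the control, 3648 with LPS, 2783 in siOCLN+LPS and 2919 in the one labelled wtOCLN+LPS. The copy RPL13AP5 had 13597, 11111, 14006 and 12944 counts. All copies of RPL13A in the tables made up 75.02%, 75.3%, 83.4% and 81.6% of the summed counts. Taken alone, RPL13A had the lowest ratio to LPS of the family, 0.605 (0.576 to 0.636) in siOCLN+LPS and 0.634 (0.604 to 0.666) in the library labelled wtOCLN+LPS. With TMM these ratios of RPL13A alone were 0.672 and 0.713. Summed with its copies, the ratios by library total were 0.903 (0.883 to 0.923) and 0.851 (0.832 to 0.871), inside 1.2-fold but below 1. Against control by library total, the sum in the library labelled wtOCLN+LPS was at 0.794 times (0.777 to 0.811), past 1.2-fold. TMM values are not given for the sums, so where they lie against 1 and 1.2-fold holds for library totals only.

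RPL21 had 0, 247, 99 and 154 counts in the same order of libraries, while the copy RPL21P28 had 6691, 5508, 7773 and 7191. Summed with its copies, RPL21 was at 423, 417, 451 and 421 CPM, with ratios to LPS of 1.08 (1.05 to 1.12) and 1.01 (0.976 to 1.05). The sum was thus highest in siOCLN+LPS by a small amount, and differed far less between libraries than the row of RPL21 alone. The tables held 28 copy symbols of 18 members, and only RPL13AP5 and RPL21P28 among them reached 1000 counts in every library. Next came the copies of RPL23A, with 3.89% to 6.84% of the summed counts. Copies without a row could not be summed: RPL7, for instance, has 61 annotated copies and none in the tables. How far such copies took up reads of the other members is therefore unknown.

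**Figure D5:**
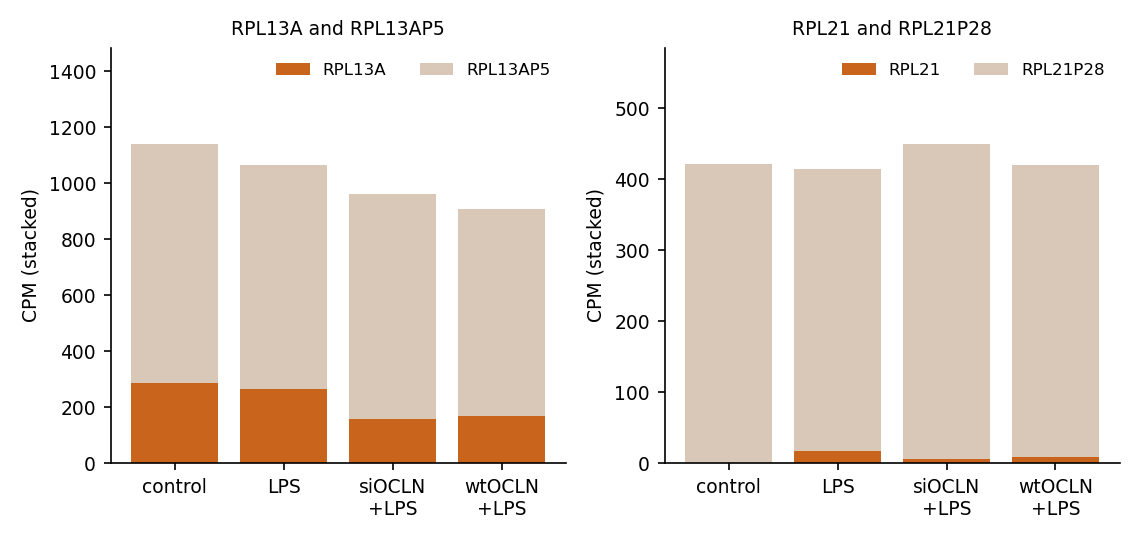
Stacked levels in CPM of RPL13A with its processed copy RPL13AP5 (left) and of RPL21 with RPL21P28 (right) in each library. The copy holds most of the counts in every library, and the height of the stack differs less between libraries, in proportion, than the gene's own segment.

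Translation factors and other TOP RNAs had lower medians than the family in both comparisons with LPS. The list of 27 other RNAs known to carry a TOP tract includes noncoding hosts of small nucleolar RNAs, such as GAS5 and SNHG8. Of the 27, 1 was at least 1.2-fold higher and 13 lower in siOCLN+LPS against LPS (median −0.23). In the library labelled wtOCLN+LPS against LPS none was higher and 18 were lower (median −0.35). With TMM these counts were 3 and 7 (median −0.08) and 2 and 9 (median −0.18), so both medians stayed negative while the number past 1.2-fold was smaller. By library total, 21.2% of all genes tested were higher and 38.1% lower in siOCLN+LPS, and 19.4% and 38.8% in the library labelled wtOCLN+LPS. With TMM the shares were 29.7% and 27.2% in the former and 28.8% and 25.7% in the latter. The share of lower TOP RNAs in siOCLN+LPS was thus near that of all genes with TMM. PABPC1, the poly(A)-binding protein, was at 1478 CPM in the control, 1451 CPM in LPS, 933 CPM in siOCLN+LPS and 867 CPM in the one labelled wtOCLN+LPS. EIF4B, a cofactor of the initiation helicase, had ratios to LPS of 0.507 (0.493 to 0.520) and 0.479 (0.466 to 0.492). EIF4B thus lay further below LPS than any of the 79 ribosomal proteins.

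Of 36 initiation factors, a list that shares EIF4B and PABPC1 with the TOP genes, 3 were higher and 17 lower in both comparisons (medians −0.23 and −0.22), and with TMM 6 and 10 in the former and 4 and 12 in the latter. The list of elongation factors also shares genes with the TOP genes, among them EEF2, EEF1G and EEF1B2. Of its 16 factors tested, 1 was higher and 6 lower in siOCLN+LPS and 1 higher and 10 lower in the library labelled wtOCLN+LPS. With TMM the counts were 2 and 2, and 3 and 3. EEF2, which drives translocation, had ratios of 0.723 (0.713 to 0.732) and 0.667 (0.658 to 0.676), and the higher gene by library total was EIF5A, at 1.65 (1.59 to 1.72) and 1.66 (1.59 to 1.73). By library total, the share of lower genes in these lists lay close to or above the 38.1% and 38.8% of all genes tested. With TMM, 27.2% and 25.7% of all genes tested were lower. The elongation factors then lay below these shares, and the initiation factors near or above them.

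Of 60 ribosome biogenesis genes, 2 were at least 1.2-fold higher and 27 lower in siOCLN+LPS (median −0.25) and 3 higher and 29 lower in the library labelled wtOCLN+LPS (median −0.26), and with TMM 5 and 13 (median −0.10) and 6 and 12 (median −0.09). NMD3, the export adaptor of the 60S subunit, had ratios to LPS of 0.636 (0.576 to 0.703) and 0.590 (0.532 to 0.653). Of 30 subunits and factors of RNA polymerases I and III, 2 were higher and 12 lower in each comparison, and with TMM 4 and 11 and 4 and 5. The shares over all genes tested were 21.2% higher and 38.1% lower in siOCLN+LPS and 19.4% and 38.8% in the library labelled wtOCLN+LPS. With TMM they were 29.7% and 27.2% in the former and 28.8% and 25.7% in the latter. The share of lower biogenesis genes thus lay above that of all genes by library total and below it with TMM. For LPS against control, 1 biogenesis gene was higher and 2 were lower, with a median of 0.00, where 8.31% and 18.3% of all genes tested were. As for the ribosomal proteins themselves, few genes that make ribosomes lay past 1.2-fold after LPS alone.

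Of 22 regulators of mTORC1 and of TOP mRNAs, 4 were higher and 6 lower in siOCLN+LPS and 5 higher and 3 lower in the library labelled wtOCLN+LPS, a balance that TMM turned to 9 higher and 4 lower in the former. DDIT4, an inhibitor of mTORC1, was at 113, 76.3, 241 and 240 CPM in the same order of libraries as above, and EIF4EBP1, a repressor of cap-dependent initiation that mTORC1 inactivates, at 91.6, 76.9, 37.1 and 36.5 CPM. Both genes differed more between the transfected pair and the other pair than within either pair. Of 14 genes that link ribosomal stress to p53, 2 were higher and 7 lower in siOCLN+LPS and 1 higher and 7 lower in the library labelled wtOCLN+LPS, and with TMM 2 and 5, and 2 and 3. For this list and the regulators, the shares over all genes tested were 21.2% higher and 38.1% lower in siOCLN+LPS. They were 19.4% and 38.8% in the library labelled wtOCLN+LPS. With TMM they were 29.7% and 27.2% in the former and 28.8% and 25.7% in the latter. CDKN1A, a cell cycle inhibitor and one of the higher genes, was at 346, 427, 669 and 642 CPM.

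Other lists of short genes had ratios above those of these factors. Of 77 mitochondrial ribosomal proteins, 20 were at least 1.2-fold higher and 12 lower in siOCLN+LPS (median 0.11), and 13 higher and 11 lower in the library labelled wtOCLN+LPS (median 0.03). Of 82 nuclear-encoded subunits of the respiratory chain, 51 were higher and 2 lower in siOCLN+LPS (median 0.37), and 42 higher and 2 lower in the library labelled wtOCLN+LPS (median 0.28). With TMM the mitochondrial ribosomal proteins had 37 higher and 2 lower and the respiratory chain 61 higher and 0 lower in siOCLN+LPS. By library total, all genes tested had 21.2% higher and 38.1% lower in siOCLN+LPS and 19.4% and 38.8% in the library labelled wtOCLN+LPS. With TMM they had 29.7% and 27.2% in siOCLN+LPS. The median coding length was 453 nt in the cytosolic ribosomal proteins, 582 nt in the mitochondrial ones and 417 nt in the respiratory chain. It was 1071 nt in the other TOP RNAs, taken only over those with a coding length, and 1219.5 nt in the initiation factors. In the biogenesis genes it was 1651.5 nt, and over all genes tested 1407 nt. The order of medians did not follow length throughout: the airway epithelial genes, with a median coding length of 1407 nt, had medians of 1.07 and 0.98. The mTORC1 and TOP mRNA regulators, with 1443 nt, had a median of 0.01 in the library labelled wtOCLN+LPS, close to the family's 0.00. In siOCLN+LPS they had −0.09, below the family's 0.10. The part of length in these differences was not tested.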

How the data were processed

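The authors deposited raw read counts per gene symbol for 4 libraries. The submitters' processing notes name TopHat, Cufflinks and hg19, with no version. For the counting step, neither the tool, nor the strand setting, nor the handling of reads with several matches is given in the sources used here. The members and gene lists were chosen with earlier results of these data known.

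Counts were divided by the library total and scaled to 1000000 (CPM). Ratios were log2(CPM + 1), for genes that reached CPM 1 in a comparison. A gene was called past 1.2-fold. With 1 library per group no test was made and no count model was fitted. Folds are ratios of CPM with exact 95% Clopper-Pearson intervals. TMM, upper quartile (edgeR 4.0.16) and median ratio scaling were alternatives. Coding lengths came from GENCODE 29, and GC content and hosted small nucleolar RNA genes from the same source. Start windows came from RefSeq. Some genes are not reported here. Named were OCLN, the members set apart, paralogues with namesakes, stalk proteins, RPS6, RPL5, RPL11, RPS19, RPL13A, RPL41, the 5 highest and 5 lowest members per comparison and up to 4 leading genes per list. Other members, such as RPL4, were named after their values were seen. The calculation was tested on simulated data.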

Additional observations from a re-analysis of the deposited data

How the results depend on the processing

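No paired analysis was possible because each group has 1 library, and no replicate could be left out. The median log2 ratio of the family under median ratio, upper quartile and TMM scaling was 0.051, 0.043 and 0.048 for LPS against control, 0.24, 0.21 and 0.25 for siOCLN+LPS against LPS, and 0.16, 0.11 and 0.17 for the library labelled wtOCLN+LPS against LPS. In the same order of scalings, the members at least 1.2-fold higher and lower numbered 37 and 3, 31 and 3, and 37 and 3 in siOCLN+LPS, and 22 and 4, 17 and 5, and 23 and 4 in the library labelled wtOCLN+LPS. With the trend on coding length removed, the medians against LPS were −0.077 (3 higher, 14 lower) and −0.17 (2 higher, 25 lower), 1 member was lower in LPS against control, and RPL39 in the library labelled wtOCLN+LPS turned to −0.00965. Without the paralogue type, 5 members were higher in that library, since 4 of the 9 are of that type. With the 4 members set apart included, 1 was higher in LPS against control and 1 lower in siOCLN+LPS against the library labelled wtOCLN+LPS. The cause of the other differences was not tested. In the other 131 combinations of a family value and an alternative, values stayed within the counting interval or 1.5 times the count. Summing processed copies was chosen after seeing the data. Depth limits RPL22L1 and RPL39L most.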

Other observations

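Ribosomal proteins outside the symbol rule gave values of the same order. RPSA, a 40S protein, is also known as the laminin receptor precursor. It was at 566 CPM in the control, 564 CPM in LPS, 459 CPM in siOCLN+LPS and 435 CPM in the one labelled wtOCLN+LPS. Its ratios to LPS by library total were 0.814 (0.789 to 0.840) and 0.770 (0.746 to 0.795). With TMM, none of the 5 genes of this list, RPSA included, was at least 1.2-fold lower in either comparison, while 3 and 2 were higher. FAU, which encodes a ribosomal protein fused to a ubiquitin-like protein, was at 184 CPM in the LPS library, at 214 CPM in that of siOCLN+LPS, and at 207 CPM in the one labelled wtOCLN+LPS.

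Symbols for readthrough transcripts that join a member to the next gene were counted apart from the member. RPL36A-HNRNPH2 had 737 counts in the control, 714 with LPS, 444 in siOCLN+LPS and 329 in the one labelled wtOCLN+LPS, a ratio to LPS of 0.493 (0.437 to 0.556) and 0.365 (0.319 to 0.417), while RPL36A had ratios of 1.02 (0.979 to 1.06) and 0.984 (0.945 to 1.02). RPS10-NUDT3 had 80, 42, 12 and 41 counts and RPL17-C18orf32 had 59, 65, 58 and 37. How reads shared with the member were assigned is not given in the sources used here.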
